A study of Sus scrofa with 6 samples.

Results

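Dorsal neural and neural crest transcription factors were compared across 3 groups of pig cells. The rows were those of LMX1A, MSX1, PAX3, TFAP2B, ZIC2, ZIC5, OTX2 and LHX2, which are 8 of the 25322 gene IDs measured. The genes were found by symbol, and each had 1 row at a locus shared with no other ID. They were chosen by their FPKM in the same 3 group columns, seen in earlier results, so their own differences are given as descriptions. RNA was sequenced from cells of the Small Xiang Pig in 3 groups of 2 libraries each. The groups were pig induced pluripotent stem cells, or piPSCs, at passage 10 labelled Rex1- (P10), piPSCs at passage 5 labelled Rex1+ (P5), and the progenitor fibroblasts at passage 5 (PEF). The piPSCs are made from body cells by forcing them back to a state like that of the early embryo, and Rex1, a zinc finger protein, marks the undifferentiated state. Passage and Rex1 state differed together between P10 and P5, so their parts cannot be told apart. The labels used here do not say how the cells were reprogrammed or whether a group came from 1 clone.

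The dorsal part of the vertebrate neural tube is patterned by BMP and WNT proteins from the overlying ectoderm and the roof plate, the strip of cells at the dorsal midline. At the edge of the neural plate these signals switch on border factors of the MSX, PAX3/PAX7, ZIC and AP-2 families, and neural crest cells, which leave the neural tube to form peripheral neurons, glia, pigment cells and facial skeleton, arise there. OTX2 and LHX2 act further forward: OTX2 marks the epiblast and then the forebrain and midbrain, and LHX2 acts in the eye field, the cortex and, outside the nervous system, the limb bud.

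Levels are FPKM, fragment numbers scaled to gene length and to the size of the library, so levels of different genes can be compared. There was 1 deposited value per gene and group, the authors' own, so no difference below has a replicate check and no p-value was computed. Differences are in log2(FPKM + 1), a scale that understates the change of low genes. A difference of at least 1, 2-fold on that scale, is counted as higher or lower among the 13998 IDs that reached an FPKM of 1 in some group. The depth of the columns is unknown. In bulk RNA, fewer cells of a type and less RNA per cell cannot be told apart. The group labels were set against marker genes. The 6 fibroblast markers with a row, out of 8 listed, summed to an FPKM of 15.7 in P10, 103 in P5 and 2654 in PEF, with none at 0 in any group. COL3A1 made up most of the P5 sum, and the other 5 summed to 12.6 in P10, 15.5 in P5 and 1638 in PEF. Of the 6, 2 had a higher FPKM in P10 than in P5, PDGFRA and PDGFRB, and 4 a lower one. Of 7 pluripotency markers only LIN28A, which binds RNA in embryonic cells, and DNMT3B, a DNA methyltransferase of early embryonic cells, had a row. They summed to 229 in P10, 458 in P5 and 1.90 in PEF. LIN28A was at 204 in P10, 299 in P5 and 0.325 in PEF, a P10 minus P5 difference of -0.55, not counted. DNMT3B was at 24.4 in P10, 159 in P5 and 1.57 in PEF, a P10 minus P5 difference of -2.66. The Rex1 labels could not be checked because ZFP42, the gene of Rex1, had no matched row. Mitochondrially encoded genes held 31.1% of the summed FPKM in P10, 19.1% in P5 and 15.7% in PEF. An FPKM of 0 can be a failed estimate: CDH2, the neural cadherin that fibroblasts also make, was listed at 0 in all 3 groups.

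The 8 genes as a set had a median FPKM of 42.3 in P10, 12.7 in P5 and 1.28 in PEF. Of the 8, 7 reached an FPKM of 5 in P10, 6 did so in P5 and 1, MSX1, did so in PEF. In P10 minus PEF, 7 were higher and 1 was lower, where 19.1% of all compared IDs were higher and 19.3% lower. In P5 minus PEF, 5 were higher and 0 lower, against 21.4% and 19.6% of all IDs. In P10 minus P5, 6 were higher and 1 was lower, against 7.57% and 8.48% of all IDs. The median differences of the set were 4.24, 2.68 and 1.56 in these 3 comparisons, beside 0.06, 0.09 and -0.05 over all compared IDs. Nothing is read from these counts, since the genes were picked with these contrasts known. All 8 passed the filter on low FPKM, but LMX1A, PAX3, ZIC5 and OTX2 were under 1 in PEF and LHX2 was under 1 in P10, so these passed through the groups in which they were high. Each pair of comparisons shares a column, so their values are given side by side only.

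**Figure D1:**
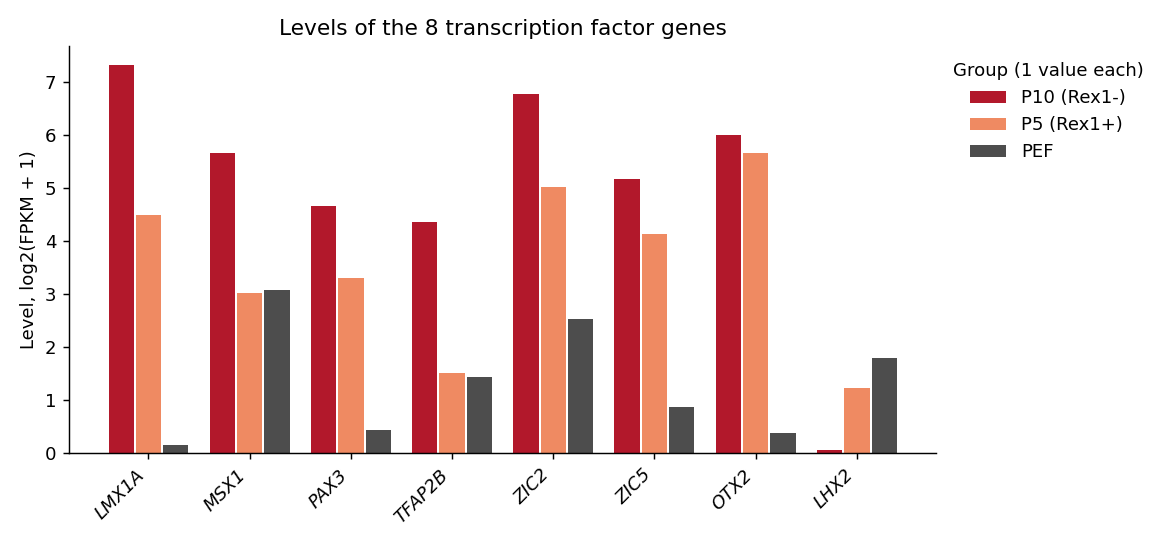
Levels of the 8 genes as log2(FPKM + 1) on the vertical axis, with 1 bar for the authors' value of each group (P10, P5, PEF from left to right) and no error bar because there is 1 value per group. OTX2 is nearly level between P10 and P5, MSX1 and TFAP2B are nearly level between P5 and PEF, and LHX2 is lowest in P10.

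LMX1A, a LIM homeodomain factor that specifies the roof plate and the dopamine neurons of the midbrain, had the highest level of the 8 in P10 (ENSSSCG00000006329, susScr3 chromosome 4, 93227596 to 93275883). It was at an FPKM of 159 in P10, 21.7 in P5 and 0.113 in PEF. The level in P10 was 7.32 times that in P5, and the log2(FPKM + 1) differences were 7.17 for P10 minus PEF, 4.35 for P5 minus PEF and 2.82 for P10 minus P5. By level it stood at rank 443 of the 13998 compared IDs in P10, at rank 3452 in P5 and at rank 13046 in PEF. Both piPSC groups were thus above PEF, and P10 was above P5.

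MSX1, a homeodomain repressor induced by BMP at the dorsal midline and the plate border (chromosome 8, 5246771 to 5250746), was at an FPKM of 49.6 in P10, 7.16 in P5 and 7.42 in PEF. Its difference was 2.63 in P10 minus P5 and 2.59 in P10 minus PEF, while P5 minus PEF was -0.04. TFAP2B, an AP-2 factor of neural crest and its derivatives (chromosome 7, 51210598 to 51235057), was at 19.6 in P10, 1.85 in P5 and 1.73 in PEF. Its difference was 2.85 in P10 minus P5, 2.92 in P10 minus PEF and 0.07 in P5 minus PEF. Both genes thus stood apart in P10 alone, with P5 and PEF on nearly one level. MSX1 was present in the fibroblasts, where TFAP2B was low.

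PAX3, a paired-box factor of the dorsal neural tube, neural crest and muscle precursors, lies on an unplaced scaffold of susScr3. It was at an FPKM of 24.5 in P10, 8.92 in P5 and 0.352 in PEF. The differences were 4.24 for P10 minus PEF, 2.87 for P5 minus PEF and 1.36 for P10 minus P5. ZIC2, a zinc finger factor of neural plate and dorsal midline whose loss causes holoprosencephaly in people and mice (chromosome 11, 76103278 to 76108001), was at 109 in P10, 31.7 in P5 and 4.81 in PEF. ZIC5, a related factor needed for neural crest in mice and frogs (chromosome 11, 76087078 to 76093251), was at 35.0 in P10, 16.6 in P5 and 0.828 in PEF. All 3 genes were ordered P10, P5, PEF from high to low.

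ZIC2 and ZIC5 are adjacent, with 10027 bases between their loci. Their differences were 1.75 and 1.03 in P10 minus P5, 4.24 and 4.30 in P10 minus PEF, and 2.49 and 3.26 in P5 minus PEF. In ratios of FPKM, ZIC2 in P10 was 3.44 times its level in P5, and ZIC5 was 2.11 times. The P10 minus P5 difference of ZIC5 lay close to the counting limit, and it was 0.89 with mitochondrial genes left out of the scaling.

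OTX2 (chromosome 1, 206642520 to 206647206) was at an FPKM of 63.0 in P10, 49.7 in P5 and 0.312 in PEF. Its difference was 5.61 in P10 minus PEF and 5.27 in P5 minus PEF, the largest of the 8 genes in P5 minus PEF. P10 minus P5 was 0.34 and was not counted. In P5 it was the highest of the 8, followed by ZIC2 and LMX1A, and in P10 only LMX1A and ZIC2 were above it.

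LHX2 (chromosome 1, 298708066 to 298728219) went the other way, at an FPKM of 0.0500 in P10, 1.34 in P5 and 2.49 in PEF. The difference was -1.16 in P10 minus P5, -1.73 in P10 minus PEF and -0.57 in P5 minus PEF. It was the only one of the 8 with its lowest value in P10. With levels this low the difference depends on the pseudocount: with 5 in place of 1 it was -0.33 in P10 minus P5 and -0.57 in P10 minus PEF, and neither was then counted.

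The paralogues of the 8 genes were described next, from a list of 12, of which 7 had a row. ZIC1, ZIC2, ZIC4 and ZIC5 were all ordered P10, P5, PEF from high to low. ZIC1, a dorsal neural tube and cerebellar factor, had the highest FPKM of these 4 genes in each group, 188 in P10, 74.0 in P5 and 25.4 in PEF. ZIC4, whose locus lies 4563 bases from that of ZIC1, was at 21.3 in P10, 6.80 in P5 and 0.494 in PEF. The P10 minus P5 differences were 1.33 for ZIC1 and 1.52 for ZIC4, so both were counted as higher, and the direction held under each of the 4 scalings tried.

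The AP-2 family did not share one pattern. TFAP2D, an AP-2 factor of the developing midbrain and retina in mice, was at an FPKM of 5.42 in P10, 32.0 in P5 and 0.0327 in PEF, a difference of -2.36 in P10 minus P5. Its locus lies 153439 bases from that of TFAP2B, which was higher in P10 by 2.85, so these neighbours differed in opposite directions between P10 and P5. TFAP2C, a factor of trophectoderm and germ cells, was at 4.70 in P10, 4.72 in P5 and 0.0760 in PEF. TFAP2A, which shares the neural crest role of TFAP2B, was at 3.68 in P10, 1.26 in P5 and 4.61 in PEF, with a difference of 1.05 in P10 minus P5. LHX9, the closest relative of LHX2, was at 0.0183 in P10, 0.291 in P5 and 2.95 in PEF. Both LIM genes were therefore highest in PEF. CRX, an OTX-class factor of photoreceptors, was at 0.0764 in P10, whereas P5 and PEF were listed at 0.

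**Figure D2:**
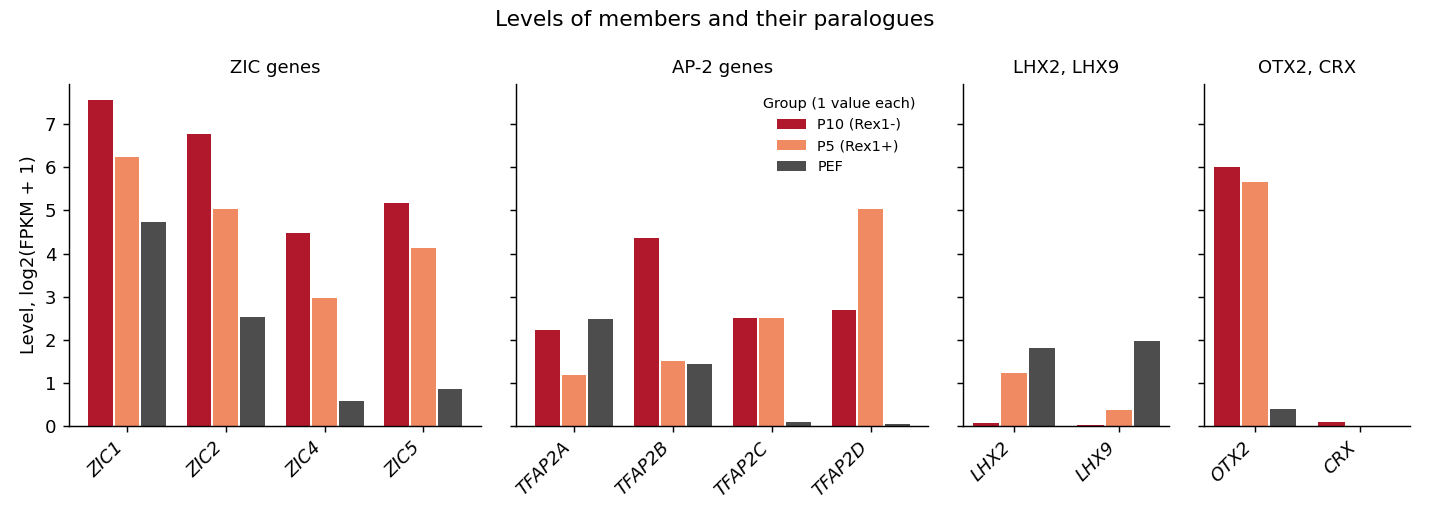
Levels as log2(FPKM + 1) on the vertical axis for 4 ZIC and 4 AP-2 genes, LHX2 with LHX9, and OTX2 with CRX, with 1 bar per group (P10, P5, PEF from left to right) and no error bar because there is 1 value per group. The 4 ZIC genes step down in the order P10, P5, PEF, whereas TFAP2B is highest in P10, TFAP2D in P5, TFAP2A in PEF, and LHX2 and LHX9 in PEF.

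Other genes of the border, roof plate and crest gave the setting of the 8 genes. Counts of the lists below stand beside the shares of all compared IDs. Those were 19.1% higher and 19.3% lower in P10 minus PEF, and 21.4% and 19.6% in P5 minus PEF. In P10 minus P5 they were 7.57% and 8.48%. A listed gene under an FPKM of 1 in PEF passed the filter through the piPSC groups, so list counts against PEF are descriptions only. Of 19 neural plate border genes listed, 12 were compared, and 8 were higher and 0 lower in P10 minus P5, with a median of 1.19. Of these 12, 5 are among the 8 genes. Without them, 3 of 7 were higher and the median was 0.17, and the higher ones were ZIC1, ZIC4 and TFAP2A. Against PEF the 7 remaining border genes had 5 higher and 0 lower in P10, and 5 higher and 1 lower in P5.

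Of 16 roof plate and dorsal midline genes, 12 were compared. Without LMX1A and MSX1, 2 of 10 were higher and 1 was lower in P10 minus P5, with a median of 0.49. In P10 minus PEF 5 of these 10 were higher and 2 lower, and in P5 minus PEF 4 were higher and 2 lower. BMP7, a dorsalising BMP ligand, was at an FPKM of 15.2 in P10, 3.43 in P5 and 0.365 in PEF, and WNT3A, a dorsal midline WNT ligand, was at 2.96 in P10 and 0.538 in P5 and listed at 0 in PEF. WNT8B, a WNT ligand of forebrain midline regions, was the lower one, at 0.358 in P10 and 3.07 in P5. WNT1, the dorsal midbrain and spinal cord WNT, was at 11.4 in P10 and 8.45 in P5 and listed at 0 in PEF. GDF7, a roof plate BMP ligand, was at 1.32 in P10 and 0.439 in P5 and likewise listed at 0 in PEF. BMP6 was at 13.3 in P10, 14.9 in P5 and 50.0 in PEF, so it was highest in the fibroblasts.

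Neural crest genes went both ways. Of 30 listed, 20 had a row and 17 were compared, without rows for the neural crest specifiers SOX10, FOXD3 and SNAI2. The 16 without TFAP2B had 4 higher and 4 lower in P10 minus P5, with a median of 0.28. In P10 minus PEF 7 of these 16 were higher and 1 was lower, and in P5 minus PEF 7 were higher and 3 lower. After TFAP2B, the 3 largest differences between P10 and P5 were negative. RXRG, a retinoid X receptor, was at an FPKM of 1.04 in P10, 11.8 in P5 and 0.0226 in PEF. KIT, the stem cell factor receptor of melanoblasts and germ cells, was at 2.22 in P10, 15.8 in P5 and 0.888 in PEF. ERBB3, the neuregulin receptor of Schwann cell precursors, was at 1.93 in P10, 10.2 in P5 and 0.188 in PEF, at a locus shared by 8 IDs. RXRG is also the nearest gene of the table to LMX1A on one side, 164072 bases away, and between P10 and P5 the neighbours differed in opposite directions.

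The neural crest label of the set was held against the crest markers with a row, 3 of 6. EDNRB, the endothelin receptor of crest cells, was at an FPKM of 9.66 in P10, 2.26 in P5 and 0.0944 in PEF. NGFR, a neurotrophin receptor of crest cells, was at 1.67 in P10 and 0.360 in P5 and listed at 0 in PEF. With TFAP2A, these 3 summed to 15.0 in P10, 3.88 in P5 and 4.70 in PEF. EDNRB made up most of the P10 sum, and the other 2 summed to 5.34 in P10, 1.62 in P5 and 4.61 in PEF. Each of the 3 had a higher FPKM in P10 than in P5, but TFAP2A was highest in PEF. Pigment cell markers stayed low, with a summed FPKM of 2.09 in P10, 2.13 in P5 and 1.82 in PEF over 4 genes, and TYR, the pigment enzyme tyrosinase, was listed at 0 in all 3 groups. The near-equal sums hid opposite directions. MLANA was listed at 0 in P10 and P5 and was at 1.65 in PEF. PMEL was at 1.39 in P10, 0.931 in P5 and 0.117 in PEF, and DCT at 0.705 in P10, 1.20 in P5 and 0.0535 in PEF. Of 3 Schwann cell markers 2 had a row, and they summed to 2.58 in P10 and 0.661 in P5, with both at 0 in PEF.

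Genes that mark position along the neural axis were counted next. Of 24 forebrain and midbrain factors, 11 were compared. Between P10 and P5, 2 were higher and 4 lower in P10, with a median of -0.31, and the 9 without OTX2 and LHX2 had 2 higher and 3 lower. DMBX1 and EN1, factors of the midbrain and the midbrain-hindbrain boundary, were the higher pair, and the eye field gene RAX was among the lower ones. DMBX1 was at an FPKM of 7.75 in P10 and 2.01 in P5 and listed at 0 in PEF, and EN1 was at 7.66 in P10, 1.64 in P5 and 1.98 in PEF. RAX was at 0.126 in P10 and 3.23 in P5 and listed at 0 in PEF. With a pseudocount of 5, P10 minus P5 was 0.86 for DMBX1, 0.93 for EN1 and -0.68 for RAX. None of these genes was then counted. Of the 9 without OTX2 and LHX2, 5 were higher and 1 was lower in P10 minus PEF, and in P5 minus PEF 6 were higher and 1 was lower.

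HOX and other posterior genes were not counted as higher in P10 minus P5 in any of 13 compared, and 5 were lower, with a median of -0.72. HOXB4 was at an FPKM of 0.549 in P10, 4.49 in P5 and 10.2 in PEF, and HOXB3 at 0.803 in P10, 5.24 in P5 and 5.20 in PEF. HOXB2 was at 1.02 in P10, 4.54 in P5 and 2.63 in PEF. HOXB2, HOXB3 and HOXB4, which are neighbours in 1 cluster and share a region, were 3 of the 5 lower genes. The others were EGR2, a hindbrain segment factor, at 0.568 in P10, 3.51 in P5 and 1.57 in PEF, and CDX4, a posterior homeobox factor, at 1.41 in P10 and 4.83 in P5 and listed at 0 in PEF. These counts depend on the pseudocount. With 5 in place of 1, P10 minus P5 was -0.66 for HOXB2, -0.82 for HOXB3, -0.77 for HOXB4 and -0.61 for EGR2. None of these 4 genes was then counted, whereas with 0.1 the list had 8 lower. In P10 minus PEF 4 of the 13 were higher and 6 lower, against 19.1% and 19.3% of all compared IDs. In P5 minus PEF 4 were higher and 4 lower, against 21.4% and 19.6%.

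Ventral genes were mostly too low to compare. Of 13 ventral neural tube and floor plate genes 9 had a row, and 3 reached an FPKM of 1 in some group. SHH, the floor plate signal, was listed at 0 in P10, at 0.0544 in P5 and at 0 in PEF, and FOXA2, a floor plate factor, was at 0 in P10, 0.235 in P5 and 0 in PEF. OLIG2, a motor neuron progenitor factor, was listed at 0 in P10, at 0.623 in P5 and at 0 in PEF. These 3 defining genes were thus under an FPKM of 1 in every group. Among the 3 compared, SPON1, a floor plate adhesion protein also made elsewhere, was at 40.6 in P10, 8.17 in P5 and 0.906 in PEF. NTN1, a guidance protein of the floor plate also made by mesenchyme, was at 0.257 in P10, 1.65 in P5 and 8.08 in PEF. In each of the 3 comparisons, 1 was higher and 1 lower.

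LMX1A, MSX1 and OTX2 also belong to the midbrain dopaminergic lineage, of whose 19 listed genes 13 had a row and 7 were compared. Outside the 8, EN1, given above, and NR4A2 had the highest levels of the lineage in P10. NR4A2, a factor of dopamine neurons that is also an immediate early gene of fibroblasts, was at an FPKM of 2.99 in P10, 1.09 in P5 and 62.3 in PEF. PITX3 was at 0.105 in P10 and 0 in the other groups, and DDC, the dopa decarboxylase, was at 0.953 in P10, 0.576 in P5 and 0 in PEF. CORIN, a floor plate protease, was at 0.0345 in P10, 0.177 in P5 and 18.3 in PEF, at a locus shared by 2 IDs. ALDH1A1, a retinoic acid enzyme of a subset of dopamine neurons, was listed at 0 in P10 and was at 1.34 in P5 and 3.95 in PEF. Without LMX1A, MSX1 and OTX2, 4 of the 7 remain. Of these 4, 1 was higher and 1 lower in P10 minus P5, 1 higher and 3 lower in P10 minus PEF, and 0 higher and 3 lower in P5 minus PEF.

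Progenitor factors of the dorsal neural tube, a list of 19 that holds none of the 8 genes, were compared for 10. In P10 minus PEF 8 were higher, and in P5 minus PEF all 10 were. Apart from IRX3 and PAX6, all of these were under an FPKM of 1 in PEF, so they passed the filter through the piPSC groups. A gene at 0 in PEF that passes is counted as higher in P10 or P5 by construction. Nothing is therefore read from these counts against PEF. Between P10 and P5, 2 were higher and 2 lower in P10, with a median of -0.16. NEUROG1, a neurogenic factor of dorsal progenitors and sensory ganglia, was at an FPKM of 25.8 in P10 and 4.84 in P5 and listed at 0 in PEF. LHX1, a LIM factor of interneurons, was at 7.68 in P10 and 1.88 in P5 and likewise at 0 in PEF. ISL1, a LIM factor of sensory and motor neurons, was listed at 0 in P10, at 3.95 in P5 and at 0.0670 in PEF. DBX1, a factor of intermediate progenitor domains, was at 0.688 in P10 and 2.44 in P5 and at 0 in PEF, and its difference of -1.03 was -0.98 under median and trimmed-mean scaling.

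The summed markers of neural progenitors and of neurons were also higher in P10 than in P5, and values of such genes stand beside those of the 8 genes. Of 13 pan-neural progenitor genes compared out of 18, 3 were higher and 0 lower in P10 minus P5, with a median of 0.35, and 11 were higher and 0 lower in each piPSC group minus PEF. FABP7, which binds fatty acids in radial glia, was at an FPKM of 114 in P10, 42.9 in P5 and 0.343 in PEF, and POU3F3, a neural POU factor, was at 32.5 in P10, 12.9 in P5 and 1.58 in PEF. Of 11 neuron genes compared out of 16, 6 were higher and 1 was lower in P10 minus P5, with a median of 1.01, and 9 were higher and 0 lower in each piPSC group minus PEF. DCX, doublecortin of migrating neurons, was at 44.4 in P10, 8.04 in P5 and 1.84 in PEF. INA, a neuronal intermediate filament, was at 34.4 in P10, 7.61 in P5 and 0.951 in PEF, whereas NEFL, a neurofilament, was at 4.32 in P10, 14.4 in P5 and 0.467 in PEF. The 7 neuron markers summed to 790 in P10, 344 in P5 and 61.5 in PEF, with none at 0. STMN2, a tubulin-binding protein of neurons, made up most of these sums in P10 and P5. The other 6 summed to 195 in P10, 91.0 in P5 and 41.8 in PEF, and each of the 7 had a higher FPKM in P10 than in P5. The 4 progenitor markers with a row, of 6, summed to 174 in P10, 88.8 in P5 and 35.8 in PEF. Without FABP7 they summed to 60.3 in P10, 45.9 in P5 and 35.4 in PEF, and SOX3, a SoxB1 factor, was at 2.14 in P10 and 4.50 in P5, the only one of the 4 with a lower FPKM in P10. The part of such cells in the levels of the 8 genes was not tested.

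**Figure D3:**
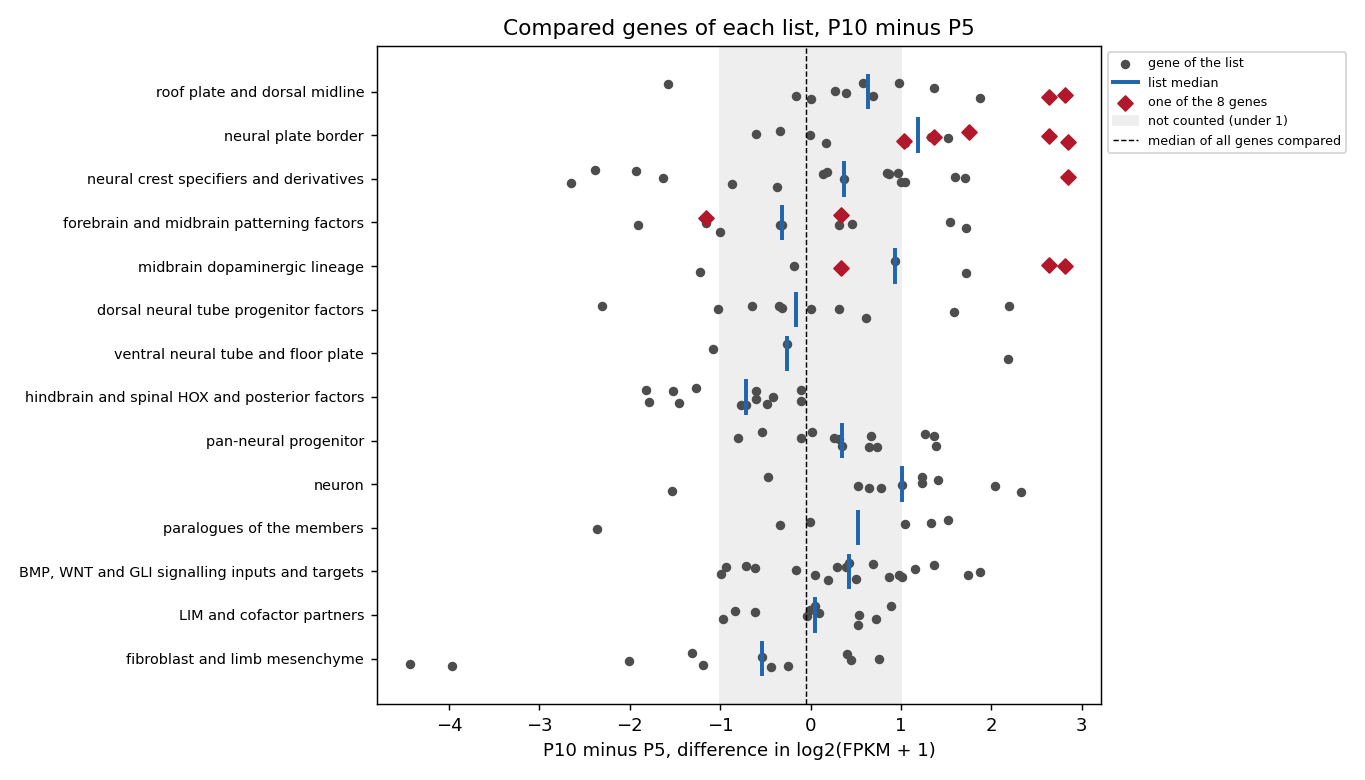
Each point is 1 compared gene of the list named on the vertical axis, placed by its P10 minus P5 difference in log2(FPKM + 1). Diamonds are the 8 genes, blue bars are list medians and the dashed line is the median of all 13998 compared IDs, at -0.05. LMX1A, MSX1 and TFAP2B lie to the right of every other gene plotted, and no HOX or posterior gene reaches 1.

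Inputs and targets of BMP, WNT and Hedgehog signalling were compared for 19 of 27 listed genes. The list holds ligands together with receptors, inhibitors and targets. In P10, 5 were higher and 0 lower than in P5, with a median of 0.43. These were BMP7 and WNT3A, given above, with AXIN2, ID4 and WNT3. AXIN2, a target and brake of WNT signalling, was at an FPKM of 45.6 in P10, 12.9 in P5 and 3.34 in PEF. ID4, a target of BMP signalling, was at 37.1 in P10, 16.1 in P5 and 18.2 in PEF. WNT3, a WNT ligand, was at 3.89 in P10, 1.43 in P5 and 0.105 in PEF, and its P10 minus P5 difference of 1.01 was 0.96 with mitochondrial genes left out of the scaling. In each of P10 and P5 minus PEF, 9 of the 19 were higher and 2 lower. BMP4 was at 16.4 in P10, 7.84 in P5 and 9.38 in PEF, a P10 minus P5 difference of 0.98, just under the limit, which median, quantile and trimmed-mean scaling took to between 1.03 and 1.06. On the lower side DKK1, a secreted WNT inhibitor, at -0.995, and PTCH1, the Hedgehog receptor, at -0.94, also lay just short of the limit, and with a pseudocount of 0.1 the list had 6 higher and 1 lower.

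Of 16 partners of the LIM factors and of AP-2, 11 were compared, and 0 were counted in either direction in P10 minus P5, with a median of 0.05. Over all IDs compared 7.57% were higher and 8.48% lower, so 0 of 11 is near the background. TLE1, a corepressor, at -0.96, LDB2, a relative of LDB1, at 0.89 and SSBP4 at -0.83 lay close to the limit, and with a pseudocount of 0.1 the list had 1 higher and 2 lower. LDB1, the cofactor that bridges LIM homeodomain proteins, was at an FPKM of 30.3 in P10, 30.3 in P5 and 31.9 in PEF. LMO1, a LIM-only protein that competes for it, was at 15.3 in P10 and 8.88 in P5 and listed at 0 in PEF. In P10 minus PEF 2 of the 11 were higher and 0 lower, and in P5 minus PEF 4 were higher and 1 was lower.

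LHX2 and MSX1 are also factors of limb mesenchyme, so fibroblast and limb genes were set beside them. Of 18 listed, 11 were compared, with 0 higher and 11 lower in P10 minus PEF, and 1 higher and 10 lower in P5 minus PEF. Between P10 and P5, 0 were higher and 5 lower in P10, with a median of -0.54. COL3A1, a fibrillar collagen, was at an FPKM of 3.11 in P10, 87.9 in P5 and 1016 in PEF. MEOX2, a mesodermal homeobox factor, was at 0.0314 in P10, 15.2 in P5 and 3.21 in PEF. TWIST2, a mesenchymal bHLH factor, was at 0.267 in P10, 4.08 in P5 and 10.9 in PEF, and DCN, a matrix proteoglycan, was at 1.12 in P10, 4.26 in P5 and 50.0 in PEF. The order of LHX2, PEF, P5, P10 from high to low, was also that of 7 of the 11 genes compared, TWIST2 and DCN among them. Of the other 4, PDGFRA, PDGFRB and PRRX2 had a higher FPKM in P10 than in P5, and MEOX2 was highest in P5. The part of remaining fibroblasts in the LHX2 level was not tested.

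The genes nearest to each of the 8 in level were sought among 8908 compared genes with a symbol, by the Euclidean distance of the 3 group values in log2(FPKM + 1). With 3 points, many genes lie close, and the distance is a description. LHX2 was left out because it was under an FPKM of 5 in every group. LMX1A was nearest to FABP7 (distance 1.10), DNER, a Notch ligand of neurons (1.56), and ELAVL3, a neuronal RNA-binding protein (1.57), and its nearest gene was thus farther than that of any other of the 7. PAX3 was nearest to MAP6, a neuronal microtubule protein (0.25), ATP6V1C2, a proton pump subunit at a locus shared by 2 IDs (0.38), and MYCN, a progenitor MYC factor (0.41). OTX2 was nearest to DPYSL5, a growth cone protein, which was at 56.9 in P10, 49.4 in P5 and 0.357 in PEF (0.15). EPHA3, an ephrin receptor (0.67), and SOX21, a neural SOX factor (0.68), followed it.

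ZIC2 was nearest to HES6, a bHLH factor of neurogenesis (0.47), then to CHD7, the chromatin remodeller mutated in CHARGE syndrome (0.84), and RGMA, a guidance molecule (0.96). ZIC5 was nearest to NRCAM, a neural adhesion molecule (0.27), FRMD3 (0.32) and SELENBP1 (0.47). TFAP2B was nearest to CXCL14, a chemokine, at 17.8 in P10, 2.57 in P5 and 1.88 in PEF (0.36), followed by ROPN1L (0.67) and RAD54B, a DNA repair helicase (0.95). MSX1 was nearest to ARRDC4 (0.80), FILIP1 (0.88) and EPM2AIP1 (0.92).

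**Figure D4:**
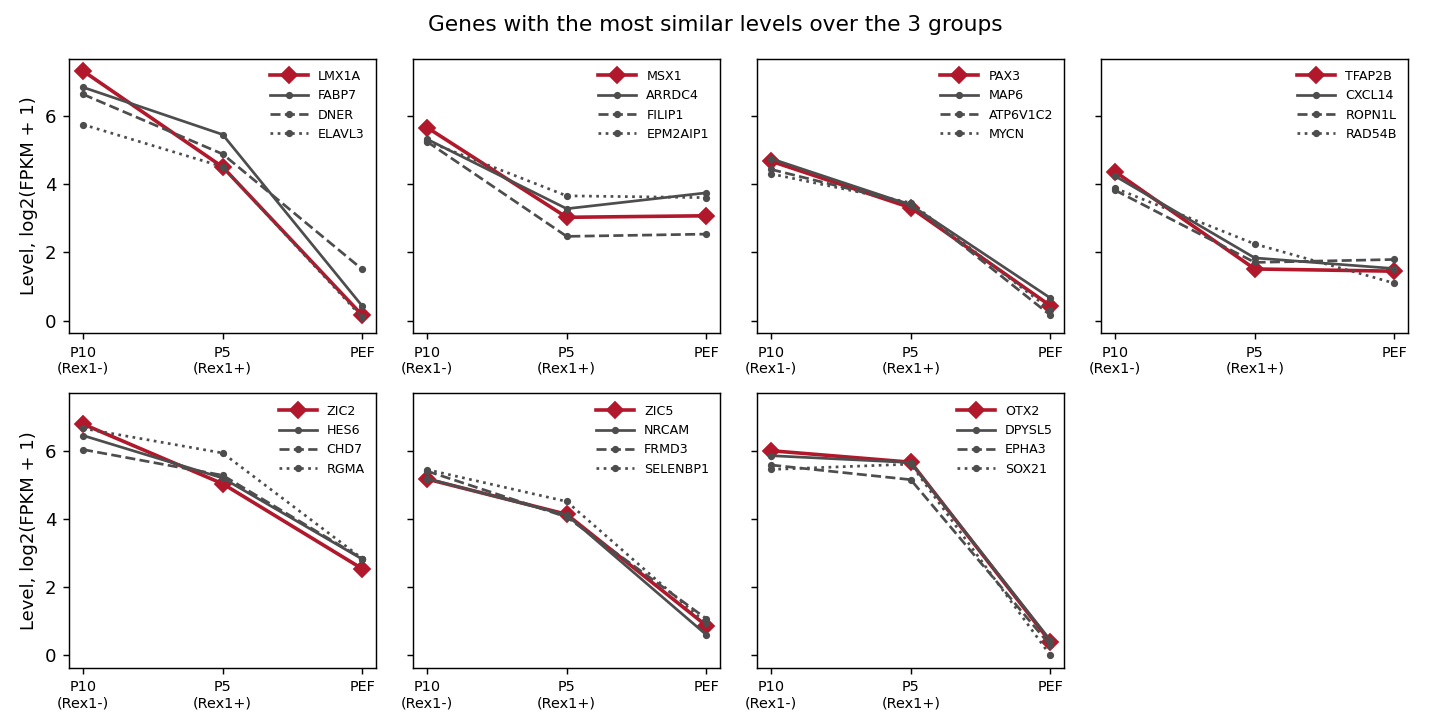
Levels as log2(FPKM + 1) on the vertical axis for 7 of the 8 genes (diamonds) and the 3 genes at the smallest distance from each (dots), with the groups P10, P5 and PEF on the horizontal axis and 1 value per group. OTX2 and DPYSL5 nearly coincide (distance 0.15), while LMX1A lies above its nearest genes in P10.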

How the data were processed

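RNeasy extraction and NEBNext Ultra RNA libraries are named in the labels' protocols. Bowtie2 2.0.6, TopHat2 2.0.9 and susScr3 are named in the submitters' processing notes. The file headers give the deposited values as FPKM, in 1 column for each group of 2 libraries. Not given in the sources used here are the FPKM program, the annotation, the way libraries were combined and whether locus starts count from 0 or 1. A reference table gave symbols for 11804 of 25322 IDs (46.6%). Differences were computed in log2(FPKM + 1) with Python 3.11.15 and pandas 2.3.3, over the 13998 IDs that reached an FPKM of 1 in some group, and the calculation was tested on simulated data. The planned limma test needs values per library and was replaced by this description.

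The 8 genes and 14 gene lists (228 genes, 165 with a row) were chosen with earlier results of these data known. Genes named were all 8, measured paralogues, and up to 4 counted genes per list with the largest P10 minus P5 differences. Other names were chosen after their values were seen. No sequences were used here, and some genes are not reported here. The alternatives used pseudocounts of 0.1 and 5, left out the filter or asked for a mean FPKM of at least 5, and applied 4 scalings (median, quantile, trimmed-mean, and without mitochondrial genes). Others asked for a difference of at least 2 or left out IDs listed at 0 or sharing a locus. IDs with a symbol only were added after seeing the data.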

Additional observations from a re-analysis of the deposited data

How the results depend on the processing

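No paired analysis was possible because each group has 1 deposited column, and leaving out replicates was not run for the same reason. No difference of the 8 genes that was counted changed sign under the 4 scalings. The other alternatives of the 12, pseudocounts, filters and the limit, cannot change a sign. In P10 minus P5, ZIC5 was 0.89 with a pseudocount of 5 and 0.89 without mitochondrial genes. The lower count of the 8 genes, 1 in P10 minus PEF and 1 in P10 minus P5, became 0 in both with a pseudocount of 5, a mean FPKM of at least 5 (LHX2 is then not compared) and a difference of at least 2. With that last limit, 3 of the 8 were higher in P10 minus P5 instead of 6. Scaling without mitochondrial genes moved the median of all IDs to 0.29 in P10 minus PEF, 0.46 in P5 minus PEF and -0.19 in P10 minus P5, and 5 of the 8 genes stayed counted as higher in P10 minus P5.

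Over all IDs, 2678 were higher and 2705 lower in P10 minus PEF, 2990 and 2744 in P5 minus PEF, and 1060 and 1187 in P10 minus P5. In the same order these became 1249 and 1762, 1416 and 1826, and 444 and 434 with a pseudocount of 5. With a difference of at least 2 they were 945 and 1086, 946 and 1096, and 171 and 203. With symbols only they were 1665 and 1742, 1938 and 1706, and 526 and 710. A mean FPKM of at least 5 left 1505, 1784 and 648 higher, with 718 lower in P10 minus P5, and a pseudocount of 0.1 gave 1666 higher in P10 minus P5. Counts of the 14 lists moved by more than 1.5 times, or from or to 0, in 145 of 1008 cases. With 1 value per group and unknown depth, the error of a difference could not be estimated.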
